A study of Mus musculus with 24 samples.

Results

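The interferon regulatory factors are a family of transcription factors, and 8 of the 54532 genes in the deposited mouse count table carry the symbols Irf1, Irf2, Irf3, Irf4, Irf5, Irf7, Irf8 and Irf9 by which they were taken. All 8 were found once, as protein-coding genes, and all 8 passed the filter on low counts that kept 15035 genes for testing. Their levels were followed by RNA-seq in 24 libraries of macrophages grown from mouse bone marrow, in 8 groups of 3. The groups were LysM-Cre;Rosa26-Runx1tg cells at day 5 and at day 3, each with macrophage colony-stimulating factor (M-CSF) and RANKL or with M-CSF alone, and Rosa26-Runx1tg cells in the same media on the same days. RANKL is the ligand under which macrophages join and turn into osteoclasts, the cells that resorb bone, and the osteoclast medium held 50 ng/mL of it with 30 ng/mL of M-CSF.

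The groups of both genotypes carry the Runx1 transgene at Rosa26, and what sets the first apart is LysM-Cre, a Cre allele in the lysozyme locus that works in macrophages, granulocytes and their precursors alike. The labels call the Cre-carrying cells Runx1 over expression and the others wild type control. They are named LysM-Cre Runx1 and control cells here, by genotype, since Runx1 itself was not called higher in the first (values given with the libraries). The labels give neither the age nor the sex of the mice, do not say what a library's number from 1 to 3 stands for, and name no M-CSF dose for the medium that lacked RANKL. Each p-value thus speaks only of how far these libraries scatter, and some of that scatter may be technical.

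All family members bind DNA at GAAA-rich elements through a conserved domain near their amino terminus. IRF3, IRF5 and IRF7 are held inactive in the cytoplasm until kinases downstream of pattern receptors phosphorylate them, IRF9 is the DNA-binding part of the complex that answers type I interferon, IRF1 and IRF2 compete for the same elements, and IRF4 and IRF8 act with the myeloid and lymphoid factor PU.1. In bone, IRF8 is known in mouse and human as a brake on osteoclast formation that restrains NFATc1, the master factor of osteoclasts, and it is known to be repressed by BLIMP1, the product of Prdm1, once RANKL has acted.

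In the deposited table, whose positions match the mouse build GRCm38, the members lie on 6 chromosomes. Irf1 (ENSMUSG00000018899) lies at chr11:53770014-53778374, Irf2 (ENSMUSG00000031627) at chr8:46739732-46847458 and Irf3 (ENSMUSG00000003184) at chr7:44997648-45002848. Irf4 (ENSMUSG00000021356) lies at chr13:30749226-30766976, Irf5 (ENSMUSG00000029771) at chr6:29526625-29541871 and Irf7 (ENSMUSG00000025498) at chr7:141262706-141266481. Irf8 (ENSMUSG00000041515) lies at chr8:120736358-120756694 and Irf9 (ENSMUSG00000002325) at chr14:55603571-55610030. Irf7 is on the - strand and the others are on the + strand, and each value is a read count for the gene as a whole.

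The libraries held between 18975750 and 36523995 counts, and 1 count was worth 0.0286 to 0.0542 CPM (counts per 1000000 counts of the TMM-scaled library size). The 8 osteoclast markers, among them Ctsk and Acp5, summed to 34700 to 56800 CPM in the RANKL libraries and to 19.2 to 38.5 CPM in those with M-CSF alone, although the labels call the cells of both media osteoclasts. The 7 macrophage markers, among them Csf1r and Adgre1, summed to 2960 to 4560 CPM with RANKL and 6810 to 8680 CPM in M-CSF alone. Runx1 itself averaged 80.6 ± 15.1 CPM in LysM-Cre Runx1 cells and 68.6 ± 2.56 CPM in control cells at day 5 with RANKL (SD, n = 3 each), and its log2 difference was between 0.00 and 0.23 in the 4 genotype comparisons (edgeR adjusted p = 1 in each). The 4 LysM-Cre Runx1 libraries numbered 3 stood apart: together they held 2576 counts of Y-linked genes, with 2 to 12 counts of Xist each, while each other number's 4 libraries held 0 to 2 Y-linked counts and had 14963 to 28379 counts of Xist each. The fold changes of the members and the counts of called genes in LysM-Cre Runx1 cells were therefore also computed without these 4 libraries.

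With RANKL, the family as a whole stood lower than in M-CSF alone on both days and in both genotypes, with Irf3 as the member that did not fall in any of the 4 comparisons. In LysM-Cre Runx1 cells at day 5, 7 of the 8 genes fell and 1 rose at an edgeR adjusted p under 0.05, the threshold used throughout, where 52.4% of all tested genes were called, 24.9% lower and 27.5% higher. At day 3 in LysM-Cre Runx1 cells 6 fell and 1 rose, where 59.2% of all tested genes were called, 30.1% lower and 29.1% higher. In control cells 7 fell and 0 rose at day 5, where 49.4% of all tested genes were called, 23.1% lower and 26.4% higher. In control cells at day 3, 6 fell and 1 rose, where 59.1% of all tested genes were called, 29.7% lower and 29.5% higher. The median log2 fold change of the 8 genes was -1.41, -1.53, -1.32 and -1.68 in the same order of comparisons, and that of all tested genes lay between -0.03 and 0.03. In bulk RNA, fewer cells of a type and less RNA per cell cannot be told apart. The falls of the members stand beside the lower sums of the macrophage markers given above, whose part in them was not tested. Of those 7 markers, 6 were called lower and 0 higher with RANKL at day 5 in both genotypes. At day 3, 5 were called lower and 1 higher in both.

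**Figure D1:**
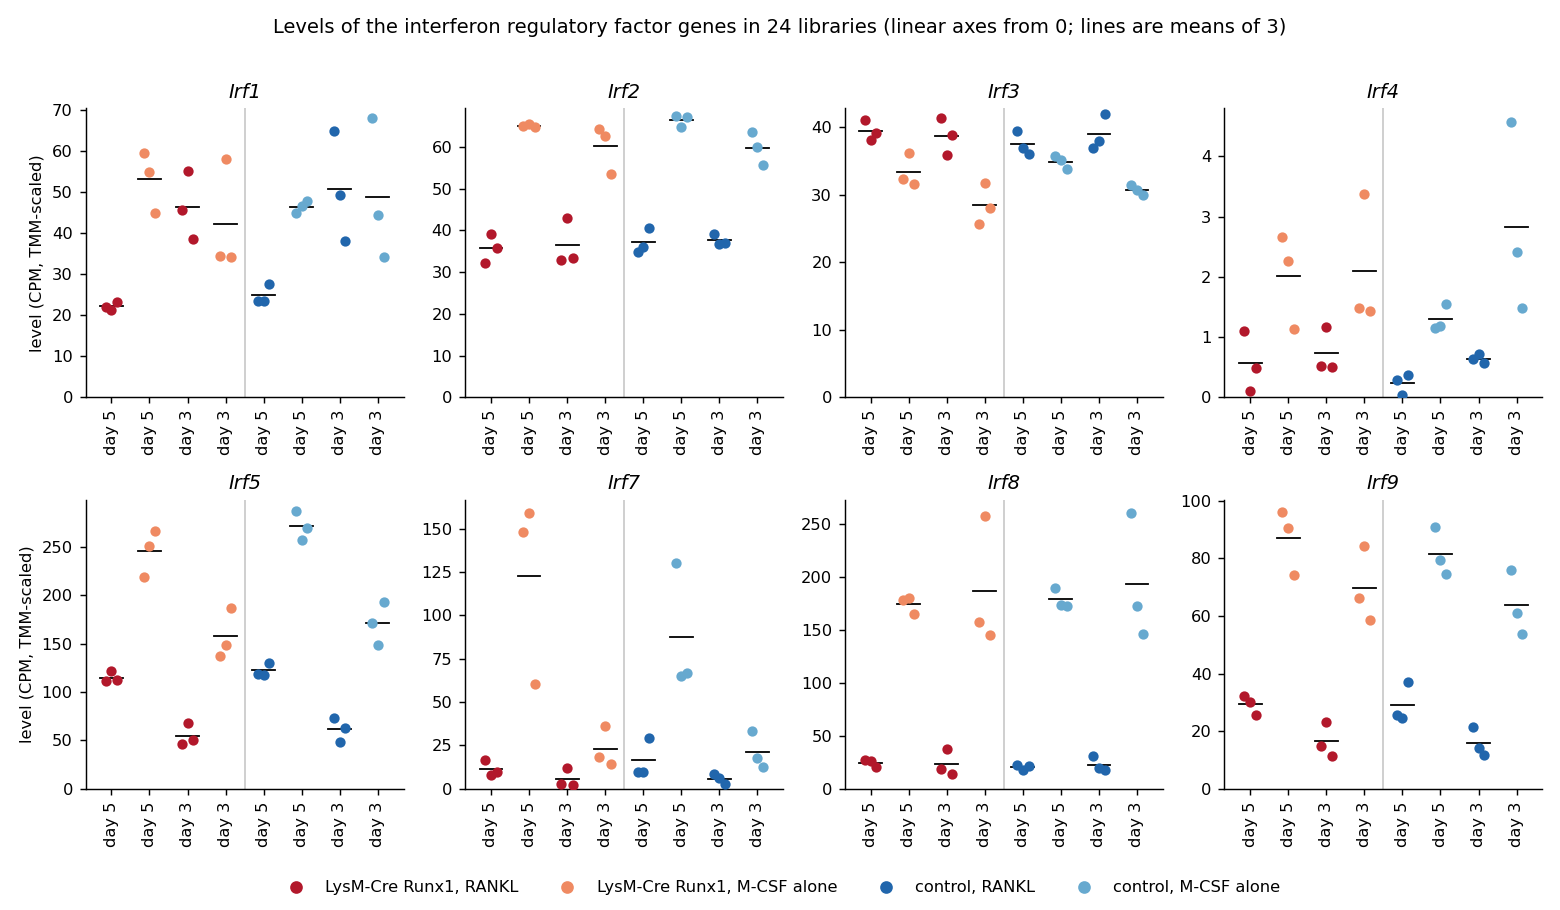
Level of each interferon regulatory factor gene in every library, in CPM on linear axes that start at 0, with the 4 LysM-Cre Runx1 groups left of the 4 control groups and RANKL left of M-CSF alone. Points are libraries and lines are means of 3. Irf8, with 14.0 to 37.9 CPM in all RANKL libraries and 145 to 261 CPM in all M-CSF libraries, shows the clearest gap between media, while the 2 genotypes overlap in every panel and group but Irf1 at day 5 with RANKL.

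Irf8, which with PU.1 sets the monocyte and macrophage program, fell in all 4 comparisons. It had, in LysM-Cre Runx1 cells at day 5, 27.3, 25.9 and 20.8 CPM with RANKL, against 178, 180 and 165 CPM in M-CSF alone. At day 5 the control cells had 22.6, 17.7 and 21.5 CPM with RANKL, against 190, 174 and 173 CPM in M-CSF alone. The groups were far apart and tight on that day. At day 3 the LysM-Cre Runx1 values were 18.9, 37.9 and 14.0 CPM with RANKL and 158, 258 and 145 CPM in M-CSF alone. At day 3 the control cells had 30.7, 19.3 and 17.3 CPM with RANKL and 261, 173 and 146 CPM in M-CSF alone. At day 3 a single library was high in each group, number 2 in LysM-Cre Runx1 cells and number 1 in control cells, in both media, yet no RANKL library came near an M-CSF library.

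The log2 fold change of Irf8 was -2.82 ± 0.31 in LysM-Cre Runx1 cells at day 5 (SE, edgeR adjusted p = 1.84e-07) and -2.99 ± 0.31 at day 3 (edgeR adjusted p = 6e-08). The control values were -3.12 ± 0.31 at day 5 (edgeR adjusted p = 5.64e-08) and -3.10 ± 0.31 at day 3 (edgeR adjusted p = 3.95e-08). These are levels 7.07 to 8.68 times lower with RANKL. Ranked over the 8 groups, the 4 M-CSF groups (means 174 to 193 CPM) overlapped their neighbours, as did the 4 RANKL groups (means 20.6 to 24.7 CPM), and the only break in the order was between the media.

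Irf4, the lymphoid and dendritic relative of Irf8 that is also known in alternatively activated macrophages, was the rarest member, with 1 to 98 counts per library. It had, in LysM-Cre Runx1 cells at day 5, 1.10, 0.104 and 0.486 CPM with RANKL, against 2.66, 2.26 and 1.13 CPM in M-CSF alone. The control libraries of day 5 held 0.280, 0.047 and 0.363 CPM with RANKL, against 1.15, 1.19 and 1.55 CPM in M-CSF alone. In both genotypes every RANKL library was below every M-CSF library, narrowly so in LysM-Cre Runx1 cells, where number 1 with RANKL came close to number 3 in M-CSF alone. At day 3 it had 0.517, 1.16 and 0.508 CPM with RANKL in LysM-Cre Runx1 cells, against 1.49, 3.38 and 1.43 CPM in M-CSF alone. The control libraries of day 3 held 0.633, 0.723 and 0.575 CPM with RANKL, against 4.57, 2.42 and 1.49 CPM in M-CSF alone. The ranges did not overlap on that day in either genotype, and all neighbouring groups in the order of the 8 means did.

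For Irf4 the log2 fold change was -1.82 ± 0.59 and -1.54 ± 0.58 in LysM-Cre Runx1 cells at days 5 and 3 (SE, edgeR adjusted p = 0.0129 and 0.0261) and -2.46 ± 0.68 and -2.12 ± 0.58 in control cells (edgeR adjusted p = 0.0048 and 0.00368). The calls in LysM-Cre Runx1 cells rested on single libraries. At day 5 the fold was -1.60 without M-CSF number 1 (adjusted p = 0.0504) and -1.38 without RANKL number 2 (adjusted p = 0.0586). At day 3 it was -1.36 without RANKL number 1, -1.35 without RANKL number 3 and -1.02 without M-CSF number 2 (adjusted p = 0.0938, 0.0925 and 0.167), and -1.51 without the 4 libraries numbered 3 (adjusted p = 0.073).

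Both genes are also markers of dendritic and B cells, so the markers of those cells are set beside them. The 8 dendritic cell markers, which include Flt3, Zbtb46 and Ccr7, summed to 8.41 to 21.1 CPM in the RANKL libraries and to 8.70 to 34.0 CPM in those with M-CSF alone, highest in control number 1 and LysM-Cre Runx1 number 2 at day 3 in M-CSF alone. Cd209a was at 0 in every day 5 RANKL library, and Ccr7 at 0 in every day 5 library with M-CSF alone. Of the 6 tested dendritic markers, 1 to 4 were called higher with RANKL in each comparison and 0 to 1 lower. Zbtb46, a transcription factor of conventional dendritic cells, was called higher in all 4, by 3.51 to 5.46 log2 units, and Ccr7, a homing receptor, at day 3, by 7.92 in LysM-Cre Runx1 cells and 5.45 in control cells. Clec10a, a lectin, was called lower at day 3, at -2.04 and -2.28. The B and plasma cell markers summed to 493 to 633 CPM with RANKL and 137 to 212 CPM in M-CSF alone, made almost wholly of Xbp1 and Sdc1. Of the 3 tested, 1 was called higher with RANKL in all 4 comparisons, Sdc1, by 5.19 to 6.05 log2 units. At day 5 in both genotypes and at day 3 in control cells 1 was called lower, and at day 3 in LysM-Cre Runx1 cells 0 were. Cd3e, which defines T cells, was at 0 in all 24 libraries. The part of dendritic and B lineage cells in the levels of Irf4 and Irf8 was not tested.

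Irf1, an activator that is itself induced by interferon, and Irf2, its constitutive counterpart that occupies the same elements and mostly represses, followed different courses. Irf2 fell with RANKL in all 4 comparisons by a small and even amount, with log2 fold changes from -0.87 to -0.67 (edgeR adjusted p between 4.14e-07 and 9.99e-06). Its RANKL libraries lay between 32.1 and 43.1 CPM and its M-CSF libraries between 53.5 and 67.5 CPM, with no overlap in any group. Irf1 fell with RANKL at day 5 and not at day 3. At day 5 it had 22.1, 21.3 and 23.3 CPM with RANKL in LysM-Cre Runx1 cells, against 59.5, 54.9 and 44.8 CPM in M-CSF alone. Control cells had, on that day, 23.4, 23.4 and 27.6 CPM with RANKL, against 44.8, 46.5 and 47.8 CPM in M-CSF alone. These RANKL libraries were the 6 lowest of all 24 for this gene.

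At day 3 Irf1 had 45.6, 55.1 and 38.6 CPM with RANKL in LysM-Cre Runx1 cells, against 34.3, 58.1 and 34.2 CPM in M-CSF alone. Control libraries gave, on that day, 64.7, 49.3 and 38.0 CPM with RANKL, against 68.0, 44.4 and 34.1 CPM in M-CSF alone. These groups overlapped in both genotypes. The log2 fold change at day 5 was -1.25 ± 0.23 in LysM-Cre Runx1 cells (SE, edgeR adjusted p = 0.000144) and -0.90 ± 0.23 in control cells (edgeR adjusted p = 0.00304). At day 3 it was 0.14 with a 95% interval from -0.34 to 0.61 in LysM-Cre Runx1 cells (edgeR adjusted p = 0.632) and 0.05 with an interval from -0.42 to 0.53 in control cells (edgeR adjusted p = 0.851).

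The response of Irf1 to RANKL was tested directly between the days. It was lower at day 5 than at day 3 by 1.39 ± 0.33 log2 units in LysM-Cre Runx1 cells (SE, a difference of -1.39, edgeR adjusted p = 0.00602), where 15.2% of all tested genes were called, 8.09% higher and 7.13% lower. In control cells the difference was -0.96 ± 0.33 (edgeR adjusted p = 0.0565), which missed the threshold, and 0 of the 8 genes were called, where 14% of all tested genes were called, 7.26% higher and 6.73% lower. Without control M-CSF number 1 at day 3 that difference was -1.30 (adjusted p = 0.00618), and without control RANKL number 3 at day 3 it was -1.13 (adjusted p = 0.0268). It was -0.92 when genes of low counts were kept (edgeR adjusted p = 0.166), and between -1.30 and -0.75 over all alternatives. Whether the day effect itself differed between genotypes was not tested. No other member was called in this comparison in LysM-Cre Runx1 cells, the smallest p among them being that of Irf5 at 0.43 ± 0.21 (edgeR adjusted p = 0.182), which reached 0.60 without RANKL number 2 at day 3 (adjusted p = 0.0457).

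Irf8, Irf1 and Irf2 were also the members whose RefSeq promoters held an element of the interferon and STAT pathways, and the stretches around those elements are printed for that reason. The windows ran from 250 bases before to 50 after the annotated start of each transcript (RefSeq, GRCm38.p6), and there were 11 for the 8 genes. GAS, the STAT element TTCNNNGAA, was found in 3 of the 11 windows and in 8.3% of 32851 windows over all genes. ISRE, the interferon-stimulated response element GAAANNGAAA, was in 1 of 11 and 3.44% of all. EICE, the composite element of PU.1 with IRF4 or IRF8, GGAANNGAAA, was in 1 of 11 and 2.72% of all. Both strands were searched, and the EICE and ISRE of Irf2 overlap and share bases. Capitals mark the matches, with the sequence written 5′ to 3′.
Irf8 (chr8:120736147-120736253, + strand): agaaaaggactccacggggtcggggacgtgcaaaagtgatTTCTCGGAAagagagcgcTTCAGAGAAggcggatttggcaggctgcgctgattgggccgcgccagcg
Irf1 (chr11:53769884-53769972, + strand): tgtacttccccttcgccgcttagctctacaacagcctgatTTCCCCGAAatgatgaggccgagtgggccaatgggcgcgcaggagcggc
Irf2 (chr8:46739495-46739569, + strand): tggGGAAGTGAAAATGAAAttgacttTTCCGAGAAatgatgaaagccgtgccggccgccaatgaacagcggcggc
Irf8 held a pair of GAS matches, whose first bases lie at -171 and -153 relative to the start, and Irf1 held 1, at -90. In Irf2 the first run of capitals holds the EICE and the ISRE, and the second is the GAS match, at -224. The RUNX element TGTGGT was in 0 of the 11 windows and in 16.8% of all, and the AP-1 element TGANTCA in 0 of 11 and 7.81% of all. A match describes letters in a window and is not a measured site, and its lack in these short windows bears on no factor.

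Irf9 encodes the subunit through which the type I interferon complex reaches its target genes. At day 5 it had 32.1, 30.2 and 25.7 CPM with RANKL in LysM-Cre Runx1 cells, against 96.2, 90.6 and 74.3 CPM in M-CSF alone. The same day's control cells held 25.7, 24.7 and 36.9 CPM with RANKL, against 90.9, 79.3 and 74.7 CPM in M-CSF alone. No RANKL library reached the lowest M-CSF library. At day 3 the values were 14.8, 23.0 and 11.4 CPM with RANKL in LysM-Cre Runx1 cells and 66.4, 84.5 and 58.6 CPM in M-CSF alone. That day's control cells held 21.4, 14.0 and 11.8 CPM with RANKL and 76.0, 61.2 and 53.9 CPM in M-CSF alone. Here too the media did not overlap, and the RANKL libraries of day 3 were the lowest of all. The log2 fold change was -1.57 ± 0.24 and -2.10 ± 0.24 in LysM-Cre Runx1 cells at days 5 and 3, and -1.49 ± 0.24 and -2.01 ± 0.24 in control cells (SE, edgeR adjusted p between 2.69e-07 and 2.3e-05).

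Irf7, the interferon-inducible member that amplifies the type I interferon response, had the deepest fall of the family in LysM-Cre Runx1 cells at day 5 and a wide spread between libraries. It had, in LysM-Cre Runx1 cells at day 5, 16.7, 7.63 and 9.77 CPM with RANKL, against 148, 159 and 60.4 CPM in M-CSF alone. Their control counterparts of day 5 had 9.83, 9.83 and 29.4 CPM with RANKL, against 130, 65.2 and 66.7 CPM in M-CSF alone. The media did not overlap, but a single library stood apart in 3 of these groups. At day 3 it had 2.41, 11.8 and 2.24 CPM with RANKL in LysM-Cre Runx1 cells, against 18.3, 36.3 and 14.5 CPM in M-CSF alone. Their control counterparts of day 3 had 8.31, 5.94 and 2.92 CPM with RANKL, against 33.5, 17.5 and 12.7 CPM in M-CSF alone. Number 2 of the LysM-Cre Runx1 cells and number 1 of the control cells were again the highest.

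The log2 fold change of Irf7 with RANKL was -3.43 ± 0.63 at day 5 and -2.10 ± 0.64 at day 3 in LysM-Cre Runx1 cells (SE, edgeR adjusted p = 0.000121 and 0.00765). For control cells it was -2.41 ± 0.61 and -1.88 ± 0.63 (edgeR adjusted p = 0.00237 and 0.0149). The day 3 calls depended on single libraries. In LysM-Cre Runx1 cells the fold was -1.62 without M-CSF number 2 (adjusted p = 0.0565). In control cells it was -1.40 without M-CSF number 1 (adjusted p = 0.1) and -1.56 without RANKL number 3 (adjusted p = 0.0762), and -1.86 when genes of low counts were kept (adjusted p = 0.0563).

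Irf3, which is made constantly and is switched on by phosphorylation, was the single member that stood higher with RANKL. At day 3 it had 41.4, 35.9 and 38.9 CPM with RANKL in LysM-Cre Runx1 cells, against 25.7, 31.8 and 28.0 CPM in M-CSF alone. Day 3 control libraries stood at 36.9, 38.0 and 42.0 CPM with RANKL, against 31.5, 30.7 and 30.0 CPM in M-CSF alone. All 6 RANKL libraries of that day were above all 6 M-CSF libraries, by 0.44 ± 0.09 log2 units in LysM-Cre Runx1 cells and 0.34 ± 0.09 in control cells (SE, edgeR adjusted p = 0.000164 and 0.00198). At day 5 it had 41.1, 38.1 and 39.1 CPM with RANKL in LysM-Cre Runx1 cells, against 32.4, 36.2 and 31.6 CPM in M-CSF alone. Day 5 control libraries stood at 39.5, 36.9 and 36.1 CPM with RANKL, against 35.8, 35.1 and 33.9 CPM in M-CSF alone. The ranges were narrowly apart in both genotypes.

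At day 5 the log2 difference of Irf3 was 0.24 ± 0.09 in LysM-Cre Runx1 cells (SE, edgeR adjusted p = 0.025) and 0.10 in control cells with a 95% interval from -0.08 to 0.29 (edgeR adjusted p = 0.338). The call at day 5 was lost without any of 4 libraries. It was 0.19 without M-CSF number 1, 0.18 without M-CSF number 3, 0.21 without RANKL number 1 and 0.23 without RANKL number 3 (adjusted p = 0.128, 0.157, 0.086 and 0.071). It was 0.20 without all libraries numbered 3 (adjusted p = 0.157) and 0.29 when genes of low counts were kept (adjusted p = 0.0658).

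Irf5, known for driving inflammatory cytokines in macrophages, moved with both the medium and the day. At day 5 it had 111, 122 and 112 CPM with RANKL in LysM-Cre Runx1 cells, against 219, 251 and 267 CPM in M-CSF alone. On day 5, control libraries had 119, 118 and 130 CPM with RANKL, against 287, 257 and 270 CPM in M-CSF alone. All RANKL libraries of day 5 lay below all M-CSF libraries of either day. At day 3 it had 46.3, 68.2 and 50.0 CPM with RANKL in LysM-Cre Runx1 cells, against 137, 149 and 187 CPM in M-CSF alone. On day 3, control libraries had 73.3, 48.5 and 62.3 CPM with RANKL, against 171, 149 and 193 CPM in M-CSF alone. In the order of the 8 group means each medium and day formed a pair of overlapping genotypes, set apart from the next pair. The log2 fold change with RANKL was -1.09 ± 0.15 and -1.52 ± 0.15 in LysM-Cre Runx1 cells at days 5 and 3, and -1.15 ± 0.15 and -1.47 ± 0.15 in control cells (SE, edgeR adjusted p between 2.62e-08 and 3.42e-06).

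**Figure D2:**
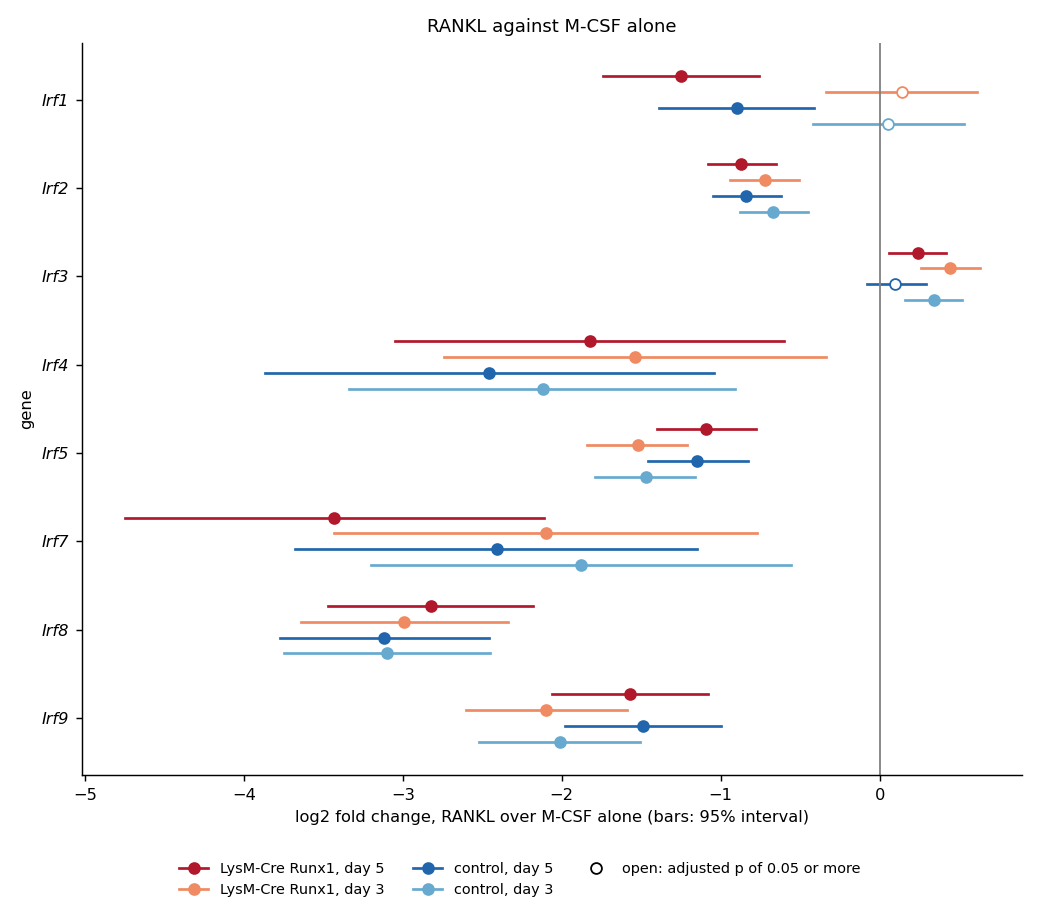
Log2 fold change of RANKL over M-CSF alone on the x axis for each gene down the page, with 95% intervals as bars, for LysM-Cre Runx1 cells at days 5 and 3 and control cells at days 5 and 3. Filled points passed an edgeR adjusted p of 0.05. Irf8 lies between -3.12 and -2.82 in all 4 comparisons, Irf1 is near 0 at day 3 only, and Irf3 has all of its points above 0.

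The annotated exons of 5 of the 8 genes share bases with another gene. For Irf9 that gene, Rnf31, lies on the same strand, so reads of the shared stretch fit both genes. For the other members it lies on the other strand, and no source used here gives the strand setting of the counting, so those reads cannot be assigned either. The shared exon length is 411 bases for Irf5 with Tnpo3, 135 for Irf1 with Gm17334, 123 for Irf9 with Rnf31, 88 for Irf3 with Bcl2l12 and 45 for Irf7 with Phrf1. With RANKL the log2 fold change of Tnpo3 was between -0.11 and 0.29, that of Phrf1 between 0.21 and 0.33, that of Rnf31 between -0.60 and -0.36 and that of Bcl2l12 between -1.17 and -0.81. Gm17334 had 178 counts over all libraries, against 22173 for Irf1. Its log2 fold change was -2.11 in LysM-Cre Runx1 cells (edgeR adjusted p = 0.0251) and -0.91 in control cells at day 5, and 0.32 and 0.28 at day 3. Irf4 overlaps no annotated gene, and the genes that overlap Irf2 and Irf8 share no exon bases with them.

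Divided by merged exon length, the levels of different members can be set beside each other, and the shares depend on that choice of length. Irf5 led in all 8 groups, also with the longest transcript as length. In LysM-Cre Runx1 cells at day 3 with RANKL, Irf5 and Irf1 had 18.9 and 11.7 CPM per kb of merged exons. Per kb of the longest transcript they had 24.5 and 21.7. By merged exons, Irf5 made up 53.9% of the summed level per kb with RANKL in LysM-Cre Runx1 cells and 54.9% in control cells at day 5, and 34.4% and 36.3% at day 3. In M-CSF alone its share was 44.7% and 49.8% at day 5, and 43.1% and 44.5% at day 3, in the same order of genotypes. Irf8 held 4.74% and 3.80% with RANKL at day 5, against 13.0% and 13.5% in M-CSF alone. At day 3 Irf8 held 5.86% and 5.40% with RANKL, against 20.5% and 20.2% in M-CSF alone. The mean shares of Irf3, Irf1 and Irf2 were larger with RANKL, while the summed level of all members was lower. Irf3 held 15.6% and 14.3% with RANKL at day 5, against 5.11% and 5.41% in M-CSF alone. At day 3 Irf1 held 21.4% and 21.8% with RANKL, against 8.22% and 9.06% in M-CSF alone, and at day 5 it held 7.61% and 8.10% with RANKL, against 7.01% and 6.24%. Irf2 held 6.56% and 6.53% with RANKL at day 5, against 4.65% and 4.8% in M-CSF alone, and 9.04% and 8.87% with RANKL at day 3, against 6.47% and 6.10%. The summed level per kb, in CPM per kb, was 73.7 ± 2.19 with RANKL and 190 ± 15.1 in M-CSF alone in LysM-Cre Runx1 cells at day 5, and 54.7 ± 10.3 and 127 ± 17.3 at day 3 (SD, n = 3 each). In control cells it was 77.0 ± 7.45 with RANKL and 188 ± 17.3 in M-CSF alone at day 5, and 58.0 ± 8.83 and 133 ± 18.4 at day 3.

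**Figure D3:**
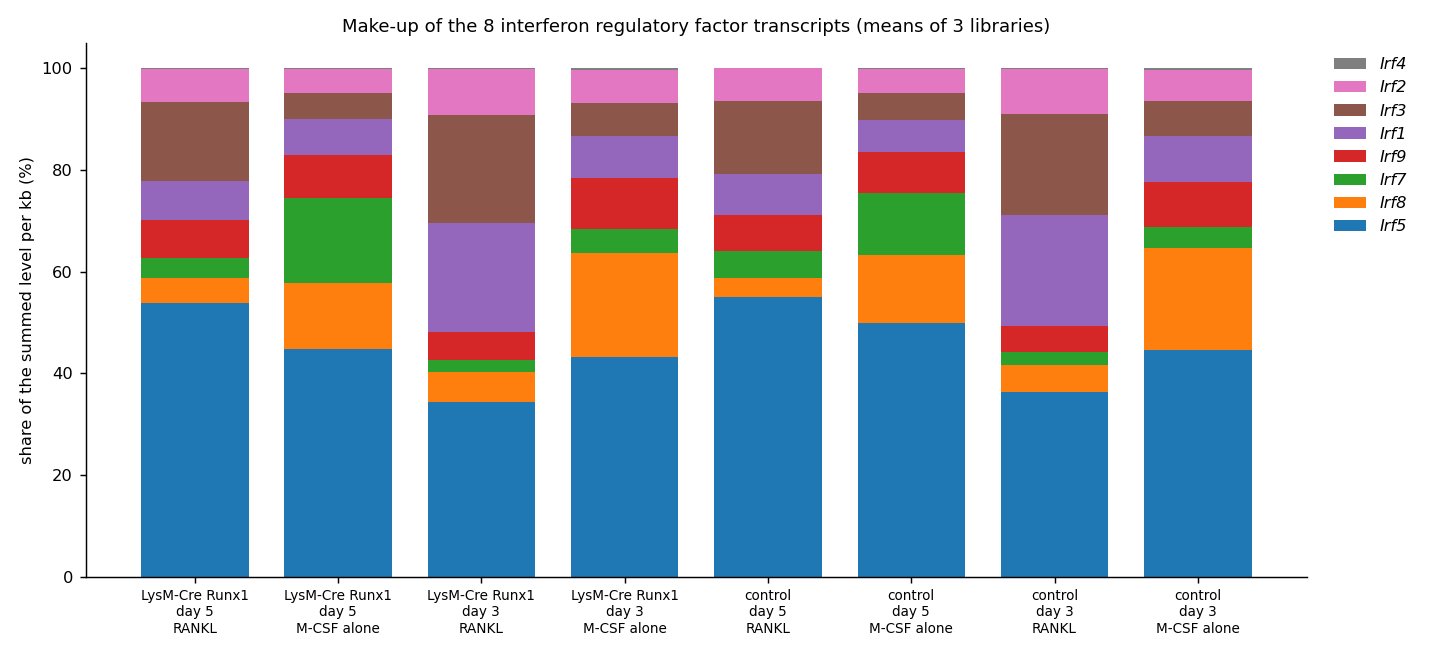
Share of each gene in the summed level per kb of the 8 genes, in percent, as stacked bars for the 8 groups (means of 3 libraries, LysM-Cre Runx1 groups left of control groups). Irf8 narrows to 3.80% to 5.86% in the RANKL bars while Irf1 and Irf3 widen at day 3 with RANKL.

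The members were also compared between day 5 and day 3, in each medium and genotype. Day comparisons use the same libraries as the medium comparisons, so the 2 kinds of comparison are not independent. With RANKL, 2 of the 8 genes rose and 1 fell in LysM-Cre Runx1 cells, where 33.2% of all tested genes were called, 17.6% higher and 15.6% lower. In control cells with RANKL 2 rose and 1 fell, where 26.8% of all tested genes were called, 14.1% higher and 12.7% lower. In M-CSF alone 2 rose and 0 fell in LysM-Cre Runx1 cells, where 14.3% were called, 7.17% higher and 7.08% lower. In M-CSF alone 2 rose and 0 fell in control cells, where 23.7% were called, 12.2% higher and 11.5% lower. The genes that rose were Irf5 and Irf9 with RANKL and Irf5 and Irf7 in M-CSF alone, and the one that fell was Irf1. Irf2, Irf3, Irf4 and Irf8 were not called in any of the 4 day comparisons, although the log2 fold change of Irf4 with RANKL in control cells was -1.45. Markers of other cells also differed between the days. The 7 stromal and osteoblast markers summed to 12.7 to 295 CPM in the day 5 libraries and 7.68 to 29.2 CPM in those of day 3. Of the 4 tested, 3 were called higher with RANKL and 2 in M-CSF alone in LysM-Cre Runx1 cells, and 0 lower. In control cells 0 were called with RANKL, and 2 were called higher and 1 lower in M-CSF alone. Col1a1, a fibroblast and osteoblast collagen, was called higher by 4.46 with RANKL and 3.64 in M-CSF alone in LysM-Cre Runx1 cells. In control cells it was called higher by 3.34 in M-CSF alone (log2). The 8 neutrophil markers summed to 70.2 to 196 CPM at day 5 and 55.0 to 141 CPM at day 3. Of the 7 tested, 5 were called higher and 2 lower with RANKL in LysM-Cre Runx1 cells, and 2 higher and 2 lower in M-CSF alone. In control cells 1 was called higher and 2 lower with RANKL, and 4 higher and 2 lower in M-CSF alone. The secondary granule gene Ltf was called higher in all 4 comparisons, by 0.66 to 1.32. Mpo and Elane, of the primary granules, were called lower, with Mpo between -3.55 and -1.78 and Elane between -4.45 and -2.33. The part of these cells in the day results was not tested.

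Irf5 rose in all 4, by 1.07 ± 0.15 log2 units with RANKL and 0.64 ± 0.15 in M-CSF alone in LysM-Cre Runx1 cells (SE, edgeR adjusted p = 3.28e-05 and 0.00651). The rise in control cells was 1.00 ± 0.15 with RANKL and 0.67 ± 0.15 in M-CSF alone (edgeR adjusted p = 9.47e-05 and 0.00317). Its libraries of day 5 lay wholly above those of day 3 in each of these 4 pairs of groups.

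Irf1 fell by 1.06 on the log2 scale with RANKL in LysM-Cre Runx1 cells (SE 0.23, edgeR adjusted p = 0.00188) and by 1.03 in control cells (SE 0.23, edgeR adjusted p = 0.00305). In M-CSF alone its difference between the days was 0.33 with a 95% interval from -0.15 to 0.81 in LysM-Cre Runx1 cells, and -0.07 with an interval from -0.55 to 0.41 in control cells (edgeR adjusted p = 0.363 and 0.859).

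Irf7 rose in M-CSF alone by 2.41 ± 0.60 log2 units in LysM-Cre Runx1 cells and by 2.04 ± 0.60 in control cells (SE, edgeR adjusted p = 0.0103 and 0.0182), a level 5.32 and 4.12 times higher at day 5. The call in control cells was lost without M-CSF number 1 at day 5 (1.64, adjusted p = 0.0913), without number 2 at day 3 (1.92, adjusted p = 0.0686) and without number 3 at day 3 (1.78, adjusted p = 0.0631), and when genes of low counts were kept (2.06, adjusted p = 0.0649). With RANKL the day difference of Irf7 was 1.08 ± 0.64 in LysM-Cre Runx1 cells and 1.51 ± 0.63 in control cells (edgeR adjusted p = 0.203 and 0.0834). Without RANKL number 2 at day 3 it was 2.27 in LysM-Cre Runx1 cells (adjusted p = 0.026), and fitted on the compared groups alone it was 1.5 in control cells (adjusted p = 0.0337).

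Irf9 rose with RANKL by 0.84 ± 0.24 in LysM-Cre Runx1 cells and by 0.88 ± 0.24 in control cells (SE, edgeR adjusted p = 0.0106 and 0.0102). In LysM-Cre Runx1 cells the rise was 0.77 without number 1 at day 3 and 0.63 without number 3 at day 3 (adjusted p = 0.052 and 0.0608), and 0.66 without all libraries numbered 3 (adjusted p = 0.0719). In control cells it was 0.79 without number 2 at day 3 and 0.68 without number 3 at day 5 (adjusted p = 0.0565 and 0.0664). In M-CSF alone the day difference of Irf9 was 0.32 and 0.36 in LysM-Cre Runx1 and control cells (edgeR adjusted p = 0.383 and 0.274).

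Irf8 had day differences from -0.13 to 0.07 in the 4 comparisons (edgeR adjusted p of 0.794 or more), and Irf2 from -0.03 to 0.15 (edgeR adjusted p of 0.285 or more). Irf3 had differences from -0.05 to 0.23, and reached an adjusted p of 0.0328 in M-CSF alone in LysM-Cre Runx1 cells when number 2 at day 3 was left out (0.32). Irf4 had differences from -1.45 to -0.06, with the largest in control cells with RANKL (edgeR adjusted p = 0.136).

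**Figure D4:**
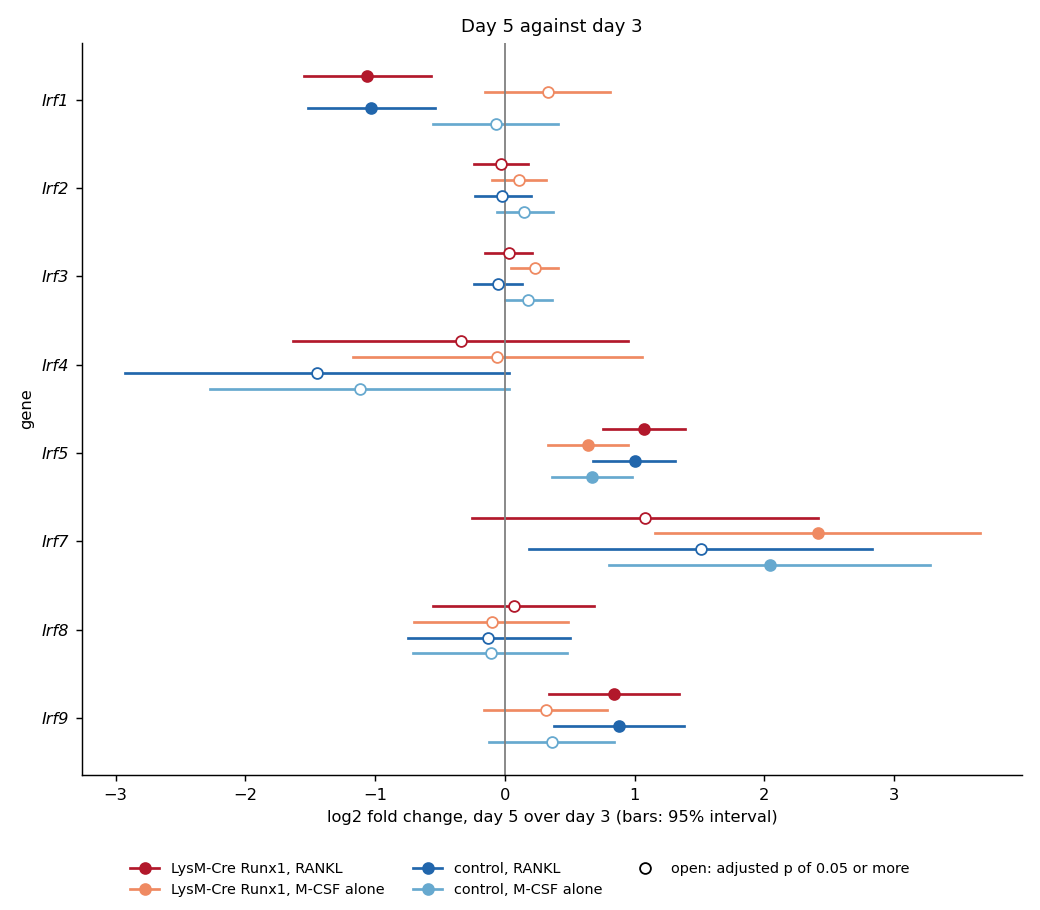
Log2 fold change of day 5 over day 3 on the x axis for each gene down the page, with 95% intervals as bars, for LysM-Cre Runx1 and control cells with RANKL and in M-CSF alone. Filled points passed an edgeR adjusted p of 0.05. Irf5 is filled in all 4 comparisons (0.64 to 1.07), Irf1 is filled below 0 with RANKL, and Irf8 lies between -0.13 and 0.07.

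The genotype comparison sets cells with LysM-Cre beside cells without it, where both carry the Runx1 transgene. Effects of Cre and of the transgene cannot be told apart in it, and Runx1 itself was not called higher in LysM-Cre Runx1 cells. None of the 8 genes was called in any of the 4 comparisons of LysM-Cre Runx1 with control cells, and 0% of the 15035 tested genes were called in each. Over the 32 tests of members, 0 had an unadjusted p under 0.05. Over all tested genes 457, 948, 258 and 530 had one, for the RANKL groups of day 5, their M-CSF counterparts, the RANKL groups of day 3 and their M-CSF counterparts. DESeq2's Wald test called 0, 17, 1 and 3 genes in the same order, 0 of them members. Without the 4 LysM-Cre Runx1 libraries numbered 3 edgeR called 39, 110, 6 and 35 genes in that order, and with a single library left out at most 22 in any comparison, again with 0 members among them.

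The log2 difference of Irf8 between LysM-Cre Runx1 and control cells was 0.26 at day 5 with RANKL, with a 95% interval from -0.36 to 0.88, and between -0.05 and 0.06 in the other 3 comparisons. Irf5 differed by -0.16 to -0.09, Irf2 by -0.06 to 0.01, Irf3 by -0.11 to 0.07, Irf9 by 0.01 to 0.13 and Irf1 by -0.21 to 0.19. The half-width of the 95% intervals was narrowest for Irf3, at 0.18, and widest for Irf4, at 1.48. Irf7 differed by -0.53 to 0.49, with an interval from -1.78 to 0.73 at day 5 with RANKL. Irf4 differed by 1.27 at day 5 with RANKL (interval from -0.21 to 2.75, edgeR adjusted p = 1) from 2, 17 and 24 counts in LysM-Cre Runx1 libraries and 1, 6 and 8 in control libraries. The ranges of the genotypes overlapped for every member in every group, except for Irf1 at day 5 with RANKL, where 21.3 to 23.3 CPM in LysM-Cre Runx1 cells stood just under 23.4 to 27.6 CPM in control cells (-0.16, interval from -0.64 to 0.33, edgeR adjusted p = 1).

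The response to RANKL did not pass the test for a difference between genotypes for any member on either day (0 of 8 and 0% of all tested genes). The largest difference was that of Irf7 at day 5, at -1.02 with a 95% interval from -2.74 to 0.71 (edgeR adjusted p = 1), and that of Irf8 was 0.30 (interval from -0.57 to 1.16) at day 5 and 0.11 (interval from -0.75 to 0.97) at day 3. The unadjusted counts over all tested genes were 481 at day 5 and 242 at day 3, and DESeq2's Wald test called 0 on both days.

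Within several groups the same library was the highest for most members. The share of all tested genes led by each library was not computed, so the counts below have no background beside them. At day 3, number 2 of the LysM-Cre Runx1 cells had the highest level of the 3 libraries for 7 of 8 genes with RANKL and 6 of 8 in M-CSF alone, and number 1 of the control cells for 6 of 8 with RANKL and 7 of 8 in M-CSF alone. At day 5 number 3 of the control cells with RANKL led for 6 of 8. The genes of the interferon target list described next did the same. LysM-Cre Runx1 number 2 at day 3 led for 23 of 25 with RANKL and 22 of 25 in M-CSF alone, control number 1 at day 3 for 25 of 25 and 22 of 25, and control number 3 at day 5 with RANKL for 24 of 25. The median target stood 0.75, 0.47, 0.46, 0.54 and 0.56 log2 units above the group mean in these 5 libraries. The macrophage markers led in the same 5 libraries for 6, 4, 7, 5 and 4 of 7 genes. Of 14 receptor and JAK-STAT genes, described below, 11, 10, 11, 11 and 5 led there. Of 20 kinases, adaptors and sensors 14, 13, 14, 14 and 12 did. Of 12 DNA-binding partners and corepressors 4, 3, 6, 7 and 5 did, and of 8 osteoclast markers 3, 2, 5, 4 and 2. Of 7 neutrophil markers 0, 0, 2, 0 and 6 did, and of 6 dendritic cell markers 3, 3, 4, 2 and 5. Of 8 osteoclast regulators tied to IRF8, described below, 2, 3, 4, 5 and 1 did. Of 4 stromal and osteoblast markers 0, 2, 0, 2 and 1 did, and of 3 B and plasma cell markers 1, 0, 2, 1 and 1. Control number 1 in M-CSF alone at day 5 led for 6 of 8 members and 21 of 25 targets, and LysM-Cre Runx1 number 1 with RANKL at day 5 for 5 of 8 and 19 of 25. The part of these library differences in the results above was not tested, and the labels give no batch or date against which this could be set.

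**Figure D5:**
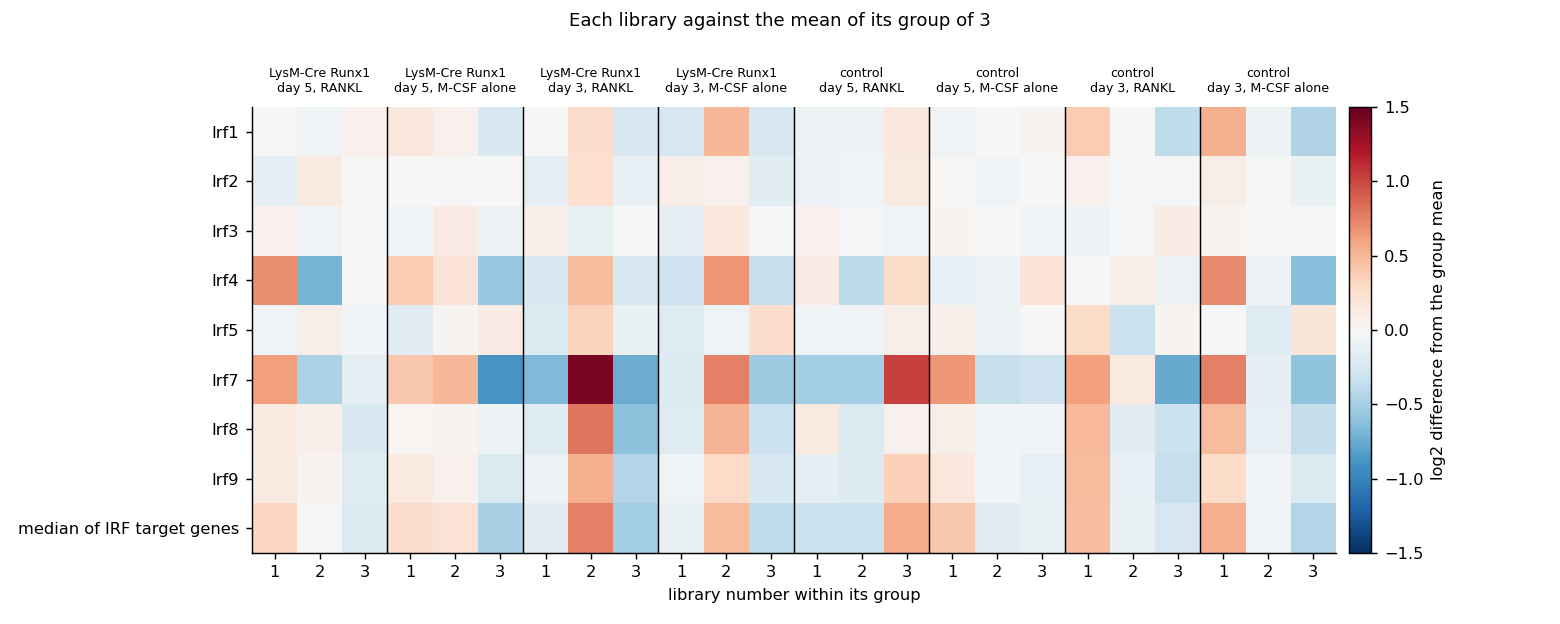
Log2 difference of each library from the mean of its group of 3, for the 8 genes and for the median of 25 interferon target genes. LysM-Cre Runx1 groups are left of control groups, and 0.5 CPM was added to each level before the logarithm. Red is above and blue below the group mean. In LysM-Cre Runx1 number 2 at day 3 with RANKL the target median is 0.75 and Irf7, Irf8 and Irf9 are red, while in control number 3 at day 5 with RANKL it is 0.56 and Irf8 is near its group mean, at 0.07.

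The genes around the family were grouped by known role, and the share of all tested genes called in each comparison is the one given above. The ligands were all but silent: of 11 interferon genes, Ifng was at 0 in all 24 libraries, Ifnb1 had counts in 1 group, and the sum over the list was at most 0.279 CPM, most of it Ifnk. Of 14 receptor and JAK-STAT genes, 10 fell and 2 rose with RANKL at day 5 in both genotypes, and 8 fell and 2 rose at day 3 in both. Stat2, the partner of Irf9, fell with log2 fold changes of -3.03 in LysM-Cre Runx1 cells and -2.50 in control cells at day 5, and of -2.37 and -2.26 at day 3. Socs3, an inhibitor of JAK signalling, rose by 4.03 and 3.02 at day 5 (edgeR adjusted p of 3.41e-07 or less for each of these).

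Of 20 tested kinases, adaptors and sensors upstream of IRF3, IRF5 and IRF7, 13 fell and 3 rose with RANKL at day 5 in both genotypes, and 14 fell and 4 rose at day 3 in both. Tlr4, the receptor of lipopolysaccharide, fell with log2 fold changes of -1.76 and -1.46 at day 5 in LysM-Cre Runx1 and control cells, and Tlr3, which senses RNA duplexes, with -2.44 and -2.33 at day 3. Traf6, which also serves RANK, rose by 1.12 and 1.18 at day 3. Traf3 rose by 1.40 in both genotypes at day 5 (edgeR adjusted p of 5.44e-08 or less for each of these).

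Of 25 tested target genes of the family and of the IRF9 complex, 21 fell and 1 rose with RANKL in LysM-Cre Runx1 cells at day 5, and 17 fell and 2 rose at day 3. In control cells 19 fell and 0 rose at day 5, and 18 fell and 1 rose at day 3. Their median log2 fold change was -1.97, -1.75, -1.79 and -2.08 in this order. Bst2, an antiviral membrane protein, fell with log2 fold changes of -2.82 and -2.76 at day 5 in LysM-Cre Runx1 and control cells and of -2.43 and -2.36 at day 3 (edgeR adjusted p of 2e-09 or less). Psmb10, a subunit of the immunoproteasome, fell with -1.40 and -1.36 at day 5 (edgeR adjusted p of 9.99e-09 or less). At day 5 against day 3 in M-CSF alone, 8 target genes rose and 0 fell in LysM-Cre Runx1 cells and 6 rose and 2 fell in control cells, with Bst2 up by 1.57 and 1.48 (edgeR adjusted p = 6.92e-06 and 1.33e-05) and Isg15 up by 2.17 and 2.14 (edgeR adjusted p = 0.0051 and 0.00415).

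Of 12 DNA-binding partners and corepressors, 4 fell and 1 rose with RANKL at day 5 in both genotypes. On that day 52.4% of all tested genes were called in LysM-Cre Runx1 cells and 49.4% in control cells. At day 3, 5 fell and 3 rose in LysM-Cre Runx1 cells, where 59.2% of all tested genes were called. In control cells 6 fell and 3 rose at day 3, where 59.1% were called. Spi1, which encodes PU.1, rose by 0.81 and 0.79 at day 5 in LysM-Cre Runx1 and control cells and by 1.27 and 1.30 at day 3 (edgeR adjusted p of 3.89e-08 or less), while its partners Irf8 and Irf4 fell. Batf2, a partner of IRF proteins in myeloid cells, had log2 fold changes of -1.66 and -2.02 at day 5 (edgeR adjusted p = 5.4e-06 and 4.89e-07).

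Of 8 osteoclast regulators tied to IRF8, 6 rose and 2 fell with RANKL in each of the 4 comparisons. Nfatc1 rose by 2.41 and 2.77 at day 5 in LysM-Cre Runx1 and control cells and by 3.19 and 3.03 at day 3 (edgeR adjusted p of 5.43e-11 or less). Prdm1, the known repressor of Irf8, rose by 3.11 and 3.38 at day 5 and by 3.52 and 3.34 at day 3 (edgeR adjusted p of 3.94e-07 or less). Bcl6, known as a brake on osteoclast formation that Prdm1 represses, was among those that fell. Its log2 fold change was -0.96 and -1.33 at day 5 and -0.61 and -0.73 at day 3 (edgeR adjusted p of 0.00976 or less). At day 5 against day 3 with RANKL, Nfatc1 fell (-0.93 and -0.78), and Bcl6 rose by 1.06 and 1.15 (edgeR adjusted p of 0.000647 or less).

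For members whose 8 group means spanned at least 1 log2 unit, the genes of most similar course were sought among 10418 genes. Likeness was measured by the root mean square (RMS) difference of centred group means of log2 CPM over the 8 groups. Before the logarithm 0.5 CPM was added to each level, which narrows the spans of rare genes. Those nearest Irf8 were Nlrp1b (RMS difference 0.12), Notch1 (0.12) and Prune2 (0.14). Nearest Irf9 were Tmem132a (0.09), Diaph2 (0.10) and Ikzf1 (0.10), and nearest Irf5 were S100a6 (0.09), Metrnl (0.10) and Rbpj (0.13). Nearest Irf1 were Vsir (0.11), Psmb9 (0.12) and Zfp362 (0.13). Irf7 had no close match, the nearest being Etv5 (0.27), Isg15 (0.31) and Bst2 (0.31), and Irf4 was nearest to C1qtnf6 (0.15), Camk1 (0.16) and Gdap10 (0.17). The spans of the members were 4.62 for Irf7, 3.16 for Irf8, 2.46 for Irf9, 2.32 for Irf5, 2.11 for Irf4 and 1.23 for Irf1. Those of Irf2 (0.89) and Irf3 (0.47) were too small for such a search. The span of Irf4 is narrowed most by the added 0.5 CPM, as its group means ran from 0.23 to 2.83 CPM. These are descriptions over 8 groups that share a common medium contrast, with no test.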

How the data were processed

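The authors deposited 1 table with the unnormalized read count of each gene in each of the 24 libraries. STAR, DESeq2 and GRCm39 are named in the submitters' processing notes, while versions, annotation and strand setting are given by no source used here. Positions in the table equal GENCODE M21 (GRCm38) for 98.3% of the genes found there, and are given as deposited. Per the labels' protocols, libraries were made from 250 ng of total RNA.

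From these counts, edgeR 4.0.16 in R 4.3.3 (filterByExpr, TMM, robust quasi-likelihood fit to all 24 libraries, 1 coefficient per group) tested 15035 of 54532 genes (27.6%) in 16 contrasts, with Benjamini-Hochberg adjustment over all tested genes and a threshold of 0.05. SE came from the fold change and its F statistic. Levels per kb use the deposited gene length, which equals the merged exon length in M21 for 98% of genes.

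The alternatives were DESeq2 1.42.0 size factors and its Wald test, no filter, the compared groups alone, a replicate block, and leaving out each library or the 4 LysM-Cre Runx1 libraries numbered 3. Same-numbered libraries deviated together with every correlation over 0.1 (0.166 to 0.369) for RANKL against M-CSF in LysM-Cre Runx1 cells at day 5 only, from the data and not the labels. The members and the 13 gene lists were chosen with earlier results of these data known. All 8 members were named, with up to 3 genes of each list by smallest p in a comparison and the 3 genes nearest each member. Some listed genes are not reported here. Prdm1 and Bcl6 were also named, and Isg15 at day 5 against day 3 in both genotypes, after their values were seen.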

Additional observations from a re-analysis of the deposited data

Results flagged for a closer look

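The response of Irf1 to RANKL differed between days 5 and 3 in LysM-Cre Runx1 cells, by -1.39 log2 units with a 95% interval from -2.07 to -0.71 (edgeR adjusted p = 0.00602, a test of the difference itself). All 3 RANKL libraries of day 5, at 21.3 to 23.3 CPM, were below all 3 of day 3, at 38.6 to 55.1 CPM, whereas the M-CSF libraries of the days, at 44.8 to 59.5 CPM and 34.2 to 58.1 CPM, overlapped. Without the 4 LysM-Cre Runx1 libraries numbered 3 the difference was -1.57 (adjusted p = 0.0161). In control cells it was -0.96 (edgeR adjusted p = 0.0565), and it passed the threshold with DESeq2 size factors (adjusted p = 0.0474), DESeq2's Wald test (0.0226) and the replicate block (0.0323). The control difference missed the threshold when genes of low counts were kept (-0.92, edgeR adjusted p = 0.166). It also missed it with the compared groups alone (-0.99, edgeR adjusted p = 0.0625).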

How the results depend on the processing

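Over 1687 recomputed values of the members, 0 called values reversed direction, 25 lost and 10 gained a call, and 27 uncalled values moved by more than their SE, some of them across 0, all on leaving out libraries. The other 1625 kept their side of the threshold. The falls of Irf2, Irf5, Irf8 and Irf9 with RANKL, and those of Irf1 at day 5, kept their calls under every alternative run. With a library left out, the count of members called for RANKL was 6 to 8 (8 with none left out) in LysM-Cre Runx1 cells at day 5, 5 to 7 (7) at day 3 and 6 to 7 (7) in control cells at day 3. For day 5 against day 3 with RANKL it was 2 to 4 (3) in LysM-Cre Runx1 cells and 2 to 3 (3) in control cells, where the compared groups alone and the block gave 4, and in M-CSF alone it was 2 to 3 (2) in LysM-Cre Runx1 cells. For day 5 against day 3 in control cells in M-CSF alone, 2 members were called, against 1 with no filter on low counts, and 1 to 2 with a library left out. For the RANKL response at day 5 minus day 3 in LysM-Cre Runx1 cells, 1 was called, and 1 to 2 with a library left out. In control cells 0 were called, against 1 (Irf1) with DESeq2 size factors, 1 with DESeq2's Wald test, and 0 to 1 with a library left out. That count was also 0 with no filter on low counts and with the compared groups alone. With the longest transcript as length, Irf8 ranked 2 in place of 3 per kb in the M-CSF group of LysM-Cre Runx1 cells at day 5, and 6 in place of 7 in control cells at day 5 with RANKL.

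With the replicate number as a block, 1 member was called for the RANKL response at day 5 minus day 3 in control cells (Irf1, -0.96, adjusted p = 0.0323), and Irf7 was called for day 5 against day 3 with RANKL in control cells (1.60, adjusted p = 0.046). The block changed no other member's call, and all 8 stayed called for RANKL in LysM-Cre Runx1 cells at day 5, where the numbers pair. Elsewhere not every same-number correlation was over 0.1 (down to -0.0658 within a genotype). Between the media of day 3, though, all 3 samples of each group were closest to their own number, with correlations of 0.077 to 0.313 in LysM-Cre Runx1 cells and 0.0984 to 0.324 in control cells, and the 4 LysM-Cre Runx1 libraries numbered 3 shared their Y-linked counts.

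Counts over all genes moved more. In M-CSF alone, day 5 against day 3 called 2143 genes in LysM-Cre Runx1 cells and 798 with the compared groups alone. With a library left out it called from 1229 (without number 2 of day 5) to 3127. In control cells it called 3570, and 2089 with the compared groups alone. With a control library left out it called from 1920 (without number 1 of day 3) to 4203. With RANKL it called 4995 genes in LysM-Cre Runx1 cells, and 3316 without number 2 at day 5. In control cells with RANKL it called 4027, and 5269 with the compared groups alone. There it called 2614 without number 1 at day 5, 2621 without number 1 at day 3 and 2627 without number 2 at day 3. The genotype comparisons called 0 genes, but without the 4 LysM-Cre Runx1 libraries numbered 3 they called 39 and 110 at day 5 with RANKL and in M-CSF alone, 6 and 35 at day 3, and 7 for the difference of the RANKL response at day 5, with 0 members among them. Without the library numbered 3 of the compared LysM-Cre Runx1 group alone they called 7 and 22 at day 5, and under the block 1 and 3 at day 5 and 0 and 1 at day 3. Depth limits Irf4, with 1 to 98 counts per library.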
